A study of Mus musculus with 6 samples.

Results

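The *Sprr2* family of small proline-rich genes was followed by microarray in epithelium from the esophagus of 6 mice at an age of 3 months. Members were the genes whose symbol begins with *Sprr2* and that had a probe set naming that gene alone, which gave 9 members of the 19938 genes measured, each with 1 probe set. In 3 mice both copies of the transcription factor gene *Klf4* were flanked by loxP sites and the ED-L2-Cre transgene was present. ED-L2 is an Epstein-Barr virus promoter active in stratified squamous epithelia, here used to drive Cre in the esophagus. The 3 controls were sex-matched littermates that carried the same floxed gene and no Cre, so an effect of Cre itself and of the loss of *Klf4* cannot be told apart. Replicate 1 was a male and replicates 2 and 3 were females in both genotypes, on a mixed genetic background, with 1 array per animal. Values are log2 signals as the authors deposited them, so a difference of 1 is a doubling of the signal. The family was singled out with its genotype differences already known. Those differences are therefore given here as a description, with their standard errors and without a p-value for each member. Counts of members past a threshold are given too, and nothing is read from them.

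*Sprr2* genes encode short proteins rich in proline, cysteine and glutamine. In the upper layers of squamous epithelium transglutaminases cross-link them to other precursors, and the product is the cornified envelope, the protein shell that replaces the inner face of the plasma membrane. The genes lie side by side in the epidermal differentiation complex, together with the genes of loricrin, involucrin and the late cornified envelope proteins, and in skin they are known to be induced by injury and inflammation. KLF4 is a zinc-finger factor of differentiating squamous cells that binds GC-rich and CACCC sequences.

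The targeted gene gave a higher, not a lower, signal in the animals labelled mutant. *Klf4* read 10.28, 10.50 and 10.28 on the arrays labelled mutant, against 9.75, 10.15 and 10.06 on those labelled control, and the groups did not overlap (0.37 ± 0.13, SE; limma adjusted p = 0.314). The sources used here do not say which part of the gene Cre removes or where the probes lie. Probes beyond the deleted exons could not test the label. Each direction below therefore rests on the labels. Squamous markers, among them the keratin genes *Krt4*, *Krt13*, *Krt5* and *Krt14*, were bright on every array, with a mean log2 signal of 11.81 to 12.02 over 9 genes on arrays labelled mutant and 11.78 to 11.90 on those labelled control. The 7 gastric columnar markers averaged 4.67 to 4.94 on arrays labelled mutant and 4.71 to 4.91 on those labelled control. All 8 fibroblast markers were lower on arrays labelled mutant, where they averaged 7.50 to 7.73, against 8.28 to 9.06 on arrays labelled control, and 3 of them, *Col1a2*, *Sparc* and *Thy1*, were past an adjusted p of 0.05 in limma. All 6 smooth muscle markers were lower too, at 7.32 to 8.24 on arrays labelled mutant and 8.49 to 9.15 on arrays labelled control, where 0 passed in limma after adjustment and 5 had an unadjusted p under 0.05. In both lists the array means of the groups did not overlap. Over all genes 0.672% passed in the lower direction, while 55.5% were higher. In bulk tissue, fewer cells of a type and less RNA per cell cannot be told apart. Skeletal muscle markers (6 genes) varied most within the groups, at 9.24, 8.84 and 6.38 on mutants 1 to 3 and 6.26, 10.81 and 9.70 on controls 1 to 3. Of 6 leukocyte markers 4 were higher on the arrays labelled mutant, with means of 5.80 to 6.36 there, against 5.49 to 5.96 on those labelled control. The one past the same threshold was the macrophage gene *Cd68*, named, like the fibroblast genes, after its values were seen, which read 7.58, 8.25 and 7.88 on the arrays labelled mutant, against 6.79, 6.73 and 6.86 on those labelled control (1.11 ± 0.17, SE; limma adjusted p = 0.0304). The 2 leukocyte markers that were lower were *Cd3e* and *Adgre1*, another macrophage gene. *Adgre1* averaged 4.47 on arrays labelled mutant and 4.66 on those labelled control (-0.20 ± 0.15, SE), and neither gene passed. Over all genes 55.5% were higher and 0.366% passed in the higher direction. The 4 endothelial markers averaged 5.06 to 5.29 on arrays labelled mutant and 5.09 to 5.66 on those labelled control. The part of these other cells in the *Sprr2* values was not tested.

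RefSeq annotation of mouse assembly GRCm38.p6 lists 13 *Sprr2* entries in a row on chromosome 3, with 3 other pseudogenes between them. Of the 9 members, 7 are protein-coding (*Sprr2b*, *Sprr2d*, *Sprr2e*, *Sprr2f*, *Sprr2h*, *Sprr2i* and *Sprr2k*), and *Sprr2g* and *Sprr2j-ps* are annotated as transcribed pseudogenes. The 4 entries that are not members are *Sprr2a1*, *Sprr2a2* and *Sprr2a3*, whose probe sets name several genes, and the pseudogene *Sprr2c-ps*, which had no probe set of its own name. RefSeq promoter sequences, 250 bases before to 50 bases after the annotated start, were at hand for the 7 coding members. The array files name no genome build, and the positions given are those of the promoter table (GRCm38.p6, plus strand). Shown are *Sprr2f*, which had the largest genotype difference of the family, *Sprr2h* and *Sprr2k*, whose promoters are alike and whose differences were not, and *Sprr2b*, which had the smallest. They lie at chr3:92364937-92365236, chr3:92385435-92385734, chr3:92432332-92432631 and chr3:92316455-92316754. Capitals mark matches to an AP-1 motif (TGANTCA), an octamer (ATTTGCAT), a TATA box (TATAAA) and a CACCC element of the kind bound by KLF factors (GGGTG when read on the plus strand).
Sprr2f: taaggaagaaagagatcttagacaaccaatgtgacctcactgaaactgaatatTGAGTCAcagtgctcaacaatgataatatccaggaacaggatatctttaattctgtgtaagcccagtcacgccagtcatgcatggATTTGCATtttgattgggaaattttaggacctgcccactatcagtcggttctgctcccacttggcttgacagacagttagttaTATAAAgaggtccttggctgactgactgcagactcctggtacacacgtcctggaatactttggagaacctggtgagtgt
Sprr2h: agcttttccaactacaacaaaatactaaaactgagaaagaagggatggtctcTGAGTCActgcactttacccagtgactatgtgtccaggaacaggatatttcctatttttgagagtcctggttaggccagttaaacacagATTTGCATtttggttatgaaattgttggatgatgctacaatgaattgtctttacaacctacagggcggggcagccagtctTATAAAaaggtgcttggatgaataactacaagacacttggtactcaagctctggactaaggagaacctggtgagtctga
Sprr2k: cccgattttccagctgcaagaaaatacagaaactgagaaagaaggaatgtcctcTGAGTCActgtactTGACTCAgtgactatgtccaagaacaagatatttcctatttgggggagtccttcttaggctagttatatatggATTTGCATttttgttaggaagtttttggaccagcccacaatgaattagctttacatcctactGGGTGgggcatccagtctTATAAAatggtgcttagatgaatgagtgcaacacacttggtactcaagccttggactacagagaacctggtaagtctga
Sprr2b: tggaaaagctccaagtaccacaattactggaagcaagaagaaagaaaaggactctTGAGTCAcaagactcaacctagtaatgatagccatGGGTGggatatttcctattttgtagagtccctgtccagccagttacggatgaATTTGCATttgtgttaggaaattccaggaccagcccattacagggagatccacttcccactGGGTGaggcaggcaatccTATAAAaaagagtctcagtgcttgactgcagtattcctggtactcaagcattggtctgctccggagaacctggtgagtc

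The 7 promoters shared one layout. All 7 held the AP-1 motif, which binds Fos and Jun proteins, with a first base 182 to 198 bases before the start, and *Sprr2k* held 2 of them. All 7 held the octamer, a site of POU factors, 108 to 112 bases before the start, and all 7 held the TATA box with its first base 29 bases before it. The longest run of letters common to all 7 was ATTTGCATTT, 10 bases around the octamer. Both strands were searched and matches of different motifs did not overlap. Of 32544 distinct promoters of the same length, 7.79% held the AP-1 motif, 1.75% the octamer and 13.6% the TATA box. The layout of AP-1, octamer and TATA box in this order stood in 9 of the 32544 promoters (0.0277%): the 7 *Sprr2* genes, *Duoxa2* and *Plet1*. That layout was defined after these sequences had been read, and genes that arose by duplication are not independent of each other. None of the 4 other small proline-rich genes, *Sprr1a*, *Sprr1b*, *Sprr3* and *Sprr4*, held the octamer. Of these 4, 2 held the AP-1 motif, 3 the TATA box and 3 a CACCC element.

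CACCC elements differed within the family. *Sprr2b* held 2 and *Sprr2k* held 1, while the windows of *Sprr2d*, *Sprr2e*, *Sprr2f*, *Sprr2h* and *Sprr2i* held none; 57.7% of all promoters had one. GC-rich sequences, which KLF4 also binds, were not searched, and the *Sprr2h* promoter shown holds one (gggcggggc). The interferon-stimulated response element (ISRE) was in 0 of the 7 and in 3.45% of all promoters, and the ETS core GGAA was in all 7 and in 96.0% of all. A match is a description of the letters and not evidence of a bound site. Pairwise identity of the 7 promoters lay between 61.9% and 89.1% over 21 pairs. *Sprr2d* and *Sprr2e* were the most alike pair at 89.1%, and *Sprr2h* and *Sprr2k* followed at 81.8%.

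**Figure D1:**
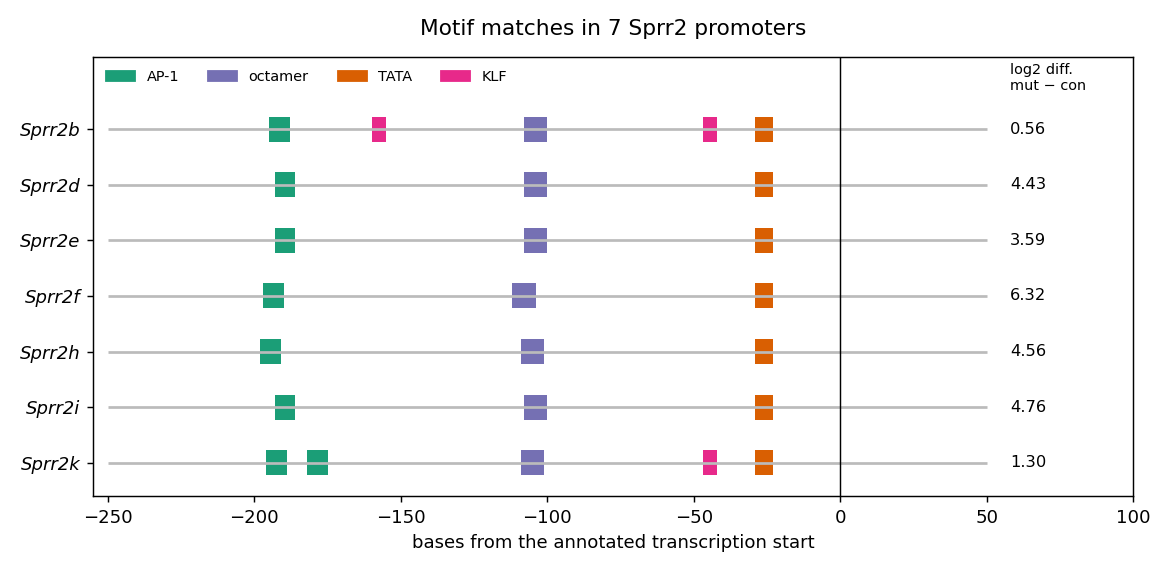
Motif matches in the promoters of the 7 protein-coding Sprr2 members, with distance in bases from the annotated start on the x axis and the log2 difference, mutant minus control, printed at the right. AP-1, octamer and TATA matches stand at nearly the same distances in all 7 promoters. CACCC (KLF) matches, found in 57.7% of all promoters, are in Sprr2b and Sprr2k. GC-rich sequences were not searched, and a link between matches and differences was not tested.

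*Sprr2d* to *Sprr2i* were far brighter on arrays labelled mutant than on arrays labelled control, by 12.1-fold to 79.8-fold. These 6 members neighbour each other in the row of measured genes. Over all of them the signals lay between 7.97 and 12.40 on arrays labelled mutant and between 4.04 and 9.14 on arrays labelled control, and within each gene the groups were 2.70 to 5.30 log2 units apart at their nearest arrays. The other 3 members, *Sprr2b*, *Sprr2j-ps* and *Sprr2k*, stand at the ends of the row and differed 1.47-fold to 2.47-fold. The median difference of the 9 members was 4.43, against 0.022 over all genes.

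*Sprr2f*, a coding member, read 11.21, 11.75 and 11.85 on the arrays labelled mutant, against 4.80, 6.38 and 4.68 on those labelled control. All 3 mutants lay close together, and among the controls replicate 2 stood above the other 2. Mutants averaged 11.60 ± 0.34 and controls 5.29 ± 0.95 (SD, n = 3 each), a difference of 6.32 ± 0.43 (SE), which ranked first among all genes measured. *Sprr2g*, annotated as a transcribed pseudogene, came second. It read 10.06, 9.89 and 10.33 on the arrays labelled mutant, against 4.04, 4.59 and 4.27 on those labelled control, with the tightest groups of the 6 strongest members. Its difference of 5.79 ± 0.17 was 55.3-fold. The control mean of 4.30 lies below 4.35, the 40th percentile of mean signal used here as a limit for dim probe sets, so the size of the fold is uncertain. Controls 1 and 3 of *Sprr2f*, 1 and 2 of *Sprr2e* and 1 of *Sprr2h* and *Sprr2i* lay below the lowest array median, 5.01. The sizes of those differences, and the first rank of *Sprr2f*, are less certain too.

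The neighbours *Sprr2h* and *Sprr2i*, both coding, gave almost the same picture. *Sprr2h* read 9.60, 10.12 and 9.48 on the arrays labelled mutant, against 4.67, 5.52 and 5.31 on those labelled control, a difference of 4.56 ± 0.25. *Sprr2i* read 9.9995, 10.23 and 9.42 on the arrays labelled mutant, against 4.72, 5.43 and 5.24 on those labelled control, a difference of 4.76 ± 0.25. In both genes mutant 2 was the highest and mutant 3 the lowest of their group, and control 1 was the lowest of all arrays.

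*Sprr2d* and *Sprr2e*, the pair with the most similar promoters, differed in how steady their control values were. *Sprr2d* read 12.40, 12.07 and 11.84 on the arrays labelled mutant, against 5.999, 7.89 and 9.14 on those labelled control. Its control SD of 1.58 was the widest spread of any member in either group, and its difference of 4.43 ± 0.68 was 5.16 without control 3 and 3.59 without control 1. *Sprr2e* read 8.52, 8.31 and 7.97 on the arrays labelled mutant, against 4.20, 4.71 and 5.11 on those labelled control, a difference of 3.59 ± 0.24. In both genes the order of the controls was the same, with replicate 1 lowest and replicate 3 highest, and the order of the mutants was the opposite.

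**Figure D2:**
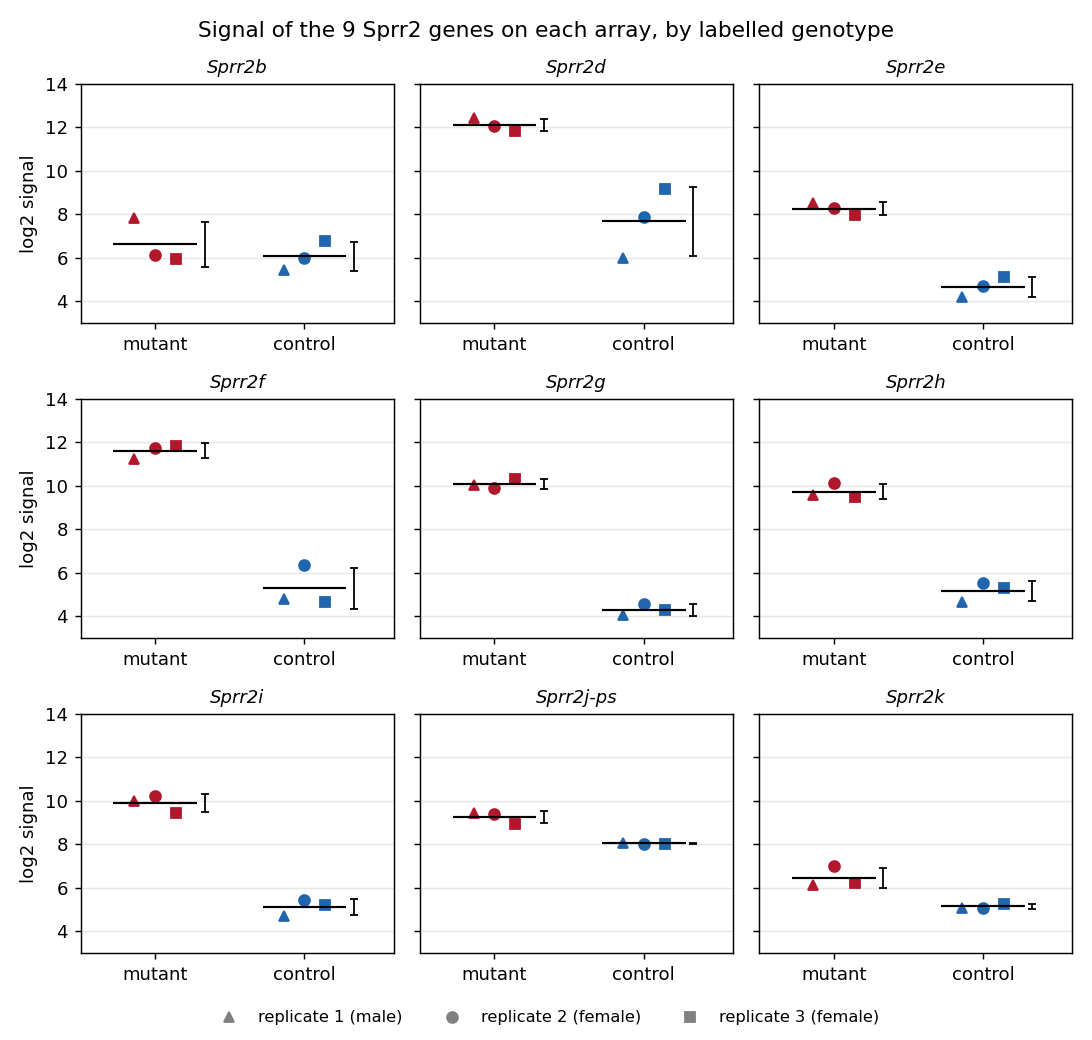
Log2 signal of each of the 9 Sprr2 members on every array, arrays labelled mutant on the left (red) and arrays labelled control on the right (blue) of each panel; symbols give the replicate, lines the group mean and bars the SD (n = 3). Groups are 2.70 or more log2 units apart in Sprr2d to Sprr2i, less than 0.9 apart in Sprr2j-ps and Sprr2k, and overlap in Sprr2b.

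The 3 members at the ends of the row had smaller differences. *Sprr2j-ps*, a transcribed pseudogene, had the most even controls: it read 9.43, 9.39 and 8.95 on the arrays labelled mutant, against 8.07, 8.04 and 8.04 on those labelled control (1.21 ± 0.14). *Sprr2k*, a coding member, read 6.11, 6.999 and 6.25 on the arrays labelled mutant, against 5.09, 5.08 and 5.28 on those labelled control (1.30 ± 0.22). Both genes had separate groups, with nearest arrays 0.88 and 0.84 apart. *Sprr2k* shares 81.8% of its promoter letters with *Sprr2h*, whose difference was 4.56. *Sprr2b*, also coding, read 7.82, 6.13 and 5.93 on the arrays labelled mutant, against 5.45, 6.0 and 6.76 on those labelled control. Only mutant 1 stood clear of the controls, the difference was 0.56 ± 0.52, and without mutant 1 it was -0.043.

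All 9 members were higher on average on arrays labelled mutant, as were 55.5% of all genes. In 8 of the 9 every array labelled mutant lay above every array labelled control, as in 10.1% of all genes. The same 8, all but *Sprr2b*, were past an adjusted p of 0.05 in limma, where 0.366% of all genes were past it in the higher direction and 1.04% in either. The members were chosen on this contrast, so nothing is read from these counts. Members of the family are close in sequence. Their probe sets may pick up each other's transcripts, which makes each member's own value uncertain.

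The probe sets that name several *Sprr2* genes were bright on all arrays and differed little. One that names *Sprr2a1*, *Sprr2a2*, *Sprr2a3* and *Sprr2b* read 13.45, 13.05 and 13.07 on the arrays labelled mutant, against 12.90, 12.92 and 12.78 on those labelled control (0.32). Another 2, both naming *Sprr2a1* and *Sprr2a3*, held identical values, 13.31, 12.17 and 12.45 on the arrays labelled mutant, against 11.98, 12.20 and 11.88 on those labelled control (0.63). Mutant 1 was the highest array in these probe sets, as it was for *Sprr2b*. Array maxima lay between 13.99 and 14.67, and differences near such values may be compressed.

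The genes on either side of the family were fixed by their order in the annotation and were tested in the same fit. Beyond *Sprr2k* the next measured genes were *Sprr1b*, *Sprr3*, *Sprr1a* and *Sprr4*, which encode the other small proline-rich proteins, and in all 4 the groups overlapped. In limma 0 of the 4 passed at an adjusted p of 0.05, and 1, *Sprr1b*, had an unadjusted p under 0.05. *Sprr1b* read 11.10, 11.42 and 10.72 on the arrays labelled mutant, against 10.39, 10.90 and 10.24 on those labelled control (0.57 ± 0.22; adjusted p = 0.349). *Sprr3*, one of the most abundant transcripts of the esophageal surface, averaged 13.44 on arrays labelled mutant and 13.40 on arrays labelled control, and *Sprr1a* averaged 12.62 on arrays labelled mutant and 12.49 on arrays labelled control. *Sprr4* was dim throughout, at 3.66 to 4.08 on arrays labelled mutant and 3.95 to 4.26 on arrays labelled control. On the other side the nearest measured gene, *Lelp1*, was dim too (3.62 ± 0.29 on arrays labelled mutant and 3.49 ± 0.11 on arrays labelled control, SD, n = 3 each; adjusted p = 0.810).

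The gene after *Lelp1* rose. *Prr9*, which encodes a proline-rich protein of the same complex, read 6.08, 6.20 and 5.99 on the arrays labelled mutant, against 3.86, 3.72 and 4.56 on those labelled control. The arrays labelled mutant were nearly equal and all lay above the controls, a 4.13-fold difference (2.05 ± 0.21, SE; limma adjusted p = 0.0107). It passed in all 12 alternative settings, with adjusted p between 0.00572 and 0.0439, although the controls averaged less than the limit for dim probe sets. *Lor*, the loricrin gene next to it, differed by -0.079.

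**Figure D3:**
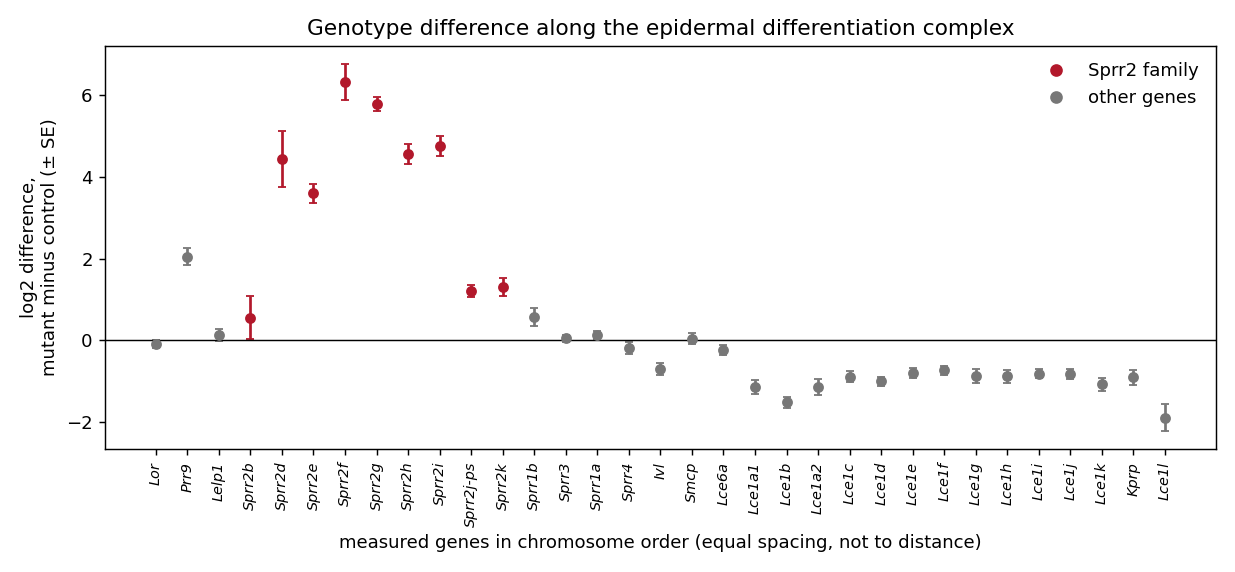
Log2 difference, mutant minus control, with its SE for measured genes in their order on the chromosome, from Lor to Lce1l, spaced evenly. Sprr2d to Sprr2i lie between 3.59 and 6.32, Prr9 at 2.05, the other small proline-rich genes between -0.19 and 0.57, and the Lce1 genes below 0.

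Sex was not used to choose the family, and so could be tested. With genotype in the model, male minus female differences of the members lay between -1.04 and 0.43, with a median of -0.22, and 7 of the 9 were lower in males. In limma 0 of the 9 passed at an adjusted p of 0.05, and 0 had an unadjusted p under 0.05, where 0.0100% and 5.22% of all genes did. The genotype difference of 8 of the 9 members was larger in the male pair than in the females. The median interaction was 0.54 over the members and -0.049 over all genes. All members share the same arrays, so the count of 8 is not made of independent cases. It was 6.401 in the male pair and 3.44 in the females for *Sprr2d*, and 2.37 in the male pair and -0.35 in the females for *Sprr2b*, with smaller gaps in the other members. The interaction passed in 0 of 9 members after adjustment and in 3 at an unadjusted p under 0.05, against 0.0451% and 5.82% of all genes. Those 3 were *Sprr2d* (2.96 ± 0.67, adjusted p = 0.535), *Sprr2b* (2.72 ± 0.45, adjusted p = 0.443) and *Sprr2e* (1.09 ± 0.34, adjusted p = 0.718), with limma and SE. With 1 male per genotype, the spread in this fit comes from the females alone, the males are assumed to vary as much, and sex and the single animal cannot be told apart.

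**Figure D4:**
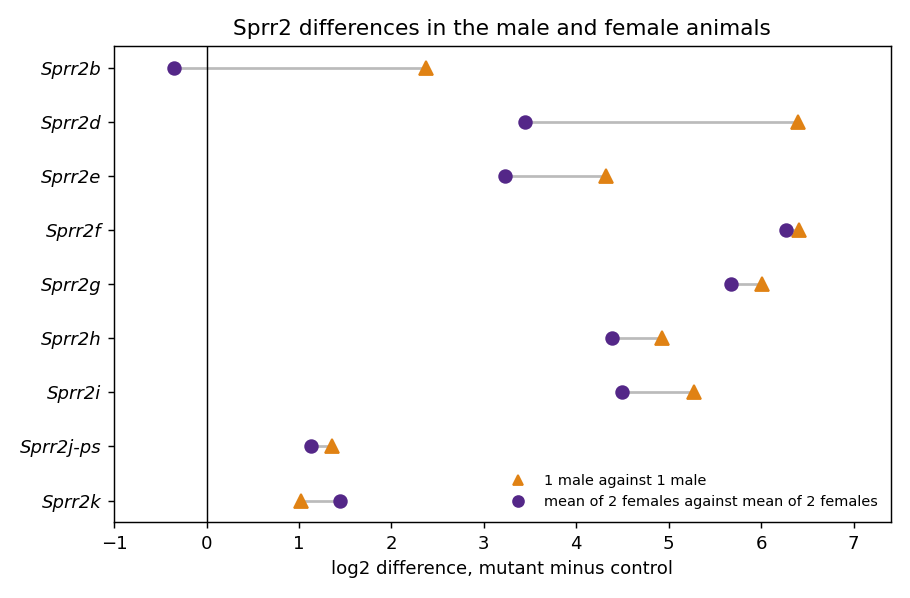
Log2 difference, mutant minus control, of each Sprr2 member in the male pair (triangles, 1 array per genotype) and in the females (circles, means of 2 arrays per genotype). The male pair differs more in 8 of 9 members, with the widest gaps in Sprr2d and Sprr2b, and Sprr2b falls below 0 in the females. All members share the same arrays, and sex and the single animal cannot be told apart.

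Variation of the members among animals of the same genotype does not use the difference between groups. Control 1 was the lowest control in 6 of the 9 members and mutant 3 the lowest mutant in 6. These were also the arrays with the lowest skeletal muscle markers of their group, and the part of that tissue in the *Sprr2* values was not tested. Deviations from the group means over the 6 arrays correlated positively in 29 of the 36 pairs of members, with a median r of 0.31 and a range of -0.61 to 0.93. The closest pairs were *Sprr2d* with *Sprr2e* (r = 0.93) and *Sprr2h* with *Sprr2i* (r = 0.90), while *Sprr2g* and *Sprr2j-ps* had the lowest r. All pairs share the same arrays, and similar probes can add to such likeness. The same counts were not made over all genes, so neither the pairs nor the lowest arrays are read as a trait of the family.

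Genes outside the family with the most similar profile were ranked by Pearson correlation with the mean of the 9 members over the 6 arrays, among 347 genes with a range of at least 2 log2 units. They were *Defb3* (r = 0.98), *Ackr2* (0.98), *Prr9* (0.97), *Car2* (0.97) and *Fmo9* (0.97). *Defb3*, encoding an antimicrobial beta-defensin, read 10.72, 9.49 and 8.95 on the arrays labelled mutant, against 4.20, 5.02 and 5.75 on those labelled control. Its order over the arrays within each genotype was that of *Sprr2d* and *Sprr2e*. *Ackr2*, encoding a receptor that removes inflammatory chemokines, averaged 7.50 ± 0.46 on arrays labelled mutant and 5.38 ± 0.30 on arrays labelled control (SD, n = 3 each). *Car2* and *Fmo9*, for a carbonic anhydrase and a flavin monooxygenase, differed by 3.76 and 3.54. The control mean of *Car2*, 3.73, lies below the limit for dim probe sets, so the size of its difference is uncertain. A gene that follows the family mean over these arrays had to differ between the genotypes, so the differences of these genes describe how they were chosen and are not a separate result. *Prr9* was also named above by its place beside the family, and its values are the same ones in both places.

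Genes of other envelope components were mostly lower or not past the threshold. Of 13 cross-linking enzymes and scaffold genes, transglutaminases, plakins, involucrin and loricrin among them, 0 rose, 1 fell and 12 did not pass, with a median of -0.10. Envoplakin, encoded by *Evpl*, was the one that fell (9.38 ± 0.33 on arrays labelled mutant and 10.41 ± 0.06 on arrays labelled control, SD, n = 3 each; -1.03 ± 0.16, SE; limma adjusted p = 0.0370), which passed in 6 of 12 alternatives. Of 30 late envelope genes in the same complex, 1 rose, which was again the neighbour *Prr9* and not a separate result, and 11 fell, with a median of -0.63. The number that fell was 6 with median centring, 6 with sex as a covariate and between 1 and 7 with 1 array left out (1 without control 3). *Lce1b* fell by 1.52 ± 0.14 (SE; limma adjusted p = 0.00766) and passed in all 12 alternatives. The hornerin gene *Hrnr* and *Lce1l* differed by -2.07 and -1.89 and passed in 5 and 4 of 12. In all genes, 0.672% passed in the lower direction.

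Transcription factors linked to small proline-rich genes or to the envelope programme gave no call, where 1.04% of all genes were called in either direction. A count of 0 in so short a list is near that share, so nothing is read from it. Of 18 measured, among them AP-1, ETS, POU, KLF, IRF and STAT factors, 0 passed in limma and 3 had an unadjusted p under 0.05, with 9 higher, 9 lower and a median of 0.063. The 3 were *Klf4* itself, *Grhl3*, a factor of barrier formation (-0.44 ± 0.13, SE; adjusted p = 0.213) and *Klf5*, a KLF factor of proliferating epithelium (0.28 ± 0.09; adjusted p = 0.249). For the stress factor NRF2, which is known to act on *Sprr2* genes in mouse skin, 1 of 10 target genes rose and 0 fell, where 0.366% of all genes rose. It was the cystine transporter gene *Slc7a11* (0.88 ± 0.11, SE; limma adjusted p = 0.0164), which passed in 8 of 12 alternatives.

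Of 13 barrier stress genes, which are induced in injured or inflamed squamous epithelium, 2 rose and 0 fell, and 12 were higher, with a median of 0.67. The 1 gene that was lower differed by -1.80 and did not pass. Over all genes 0.366% rose and 55.5% were higher. The 2 were *Defb3* (4.73 ± 0.51, SE; limma adjusted p = 0.0118) and the interleukin-1 receptor antagonist gene *Il1rn* (0.84 ± 0.10; adjusted p = 0.0157), which passed in 11 and 8 of 12 alternatives. *Defb3* is also among the genes picked above for likeness to the family, so its value is not a separate result. The list was chosen with earlier results of these data known. The mean log2 signal over the 13 genes was 9.02 on mutant 1, against 7.43 and 7.38 on mutants 2 and 3 and 6.34 to 6.86 on the controls. Without mutant 1 the median was 0.20. Mutant 1 was thus the highest array for these genes, for *Sprr2b* and for the *Sprr2a* probe sets, while for *Sprr2f* it was the lowest of the arrays labelled mutant.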

How the data were processed

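RNA from esophageal epithelium was hybridised to 1 array per animal. The authors deposited log2 signals for 28853 probe sets, a scale inferred from their range (array medians 5.01 to 5.13). Partek 6.4 is named per the submitters' processing notes; how background, normalization and summarization were handled is not given in the sources used here. Symbols came from the platform annotation, updated through Entrez identifiers (21698 of 21789 probe sets naming 1 gene matched). The brightest probe set per gene gave 19938 genes.

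The comparison used limma 3.58.1 (R 4.3.3; two-sided, genotype only, 7.58 moderated degrees of freedom), with Benjamini-Hochberg adjustment over all genes. Sex and its interaction with genotype were added as terms. The fit was tested on simulated data. "Rose" and "fell" mean past an adjusted p of 0.05. Named genes were all members, the other small proline-rich genes, *Klf4*, up to 4 passing genes per list (the 2 smallest p where none passed), 2 neighbours on each side and the 5 most similar profiles. Members and lists were chosen with earlier results of these data known. Promoters were aligned with Biopython 1.88. Deviations of same-numbered mutants and controls correlated at -0.17, 0.090 and -0.10, and the main fit used no pairing. With so few arrays these values cannot exclude a pairing, so a replicate block is given as an alternative. The number of animals limits the precision.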

Additional observations from a re-analysis of the deposited data

How the results depend on the processing

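The 12 alternatives were quantile normalization, median centring, removal of dim probe sets, the mean of probe sets, sex as a covariate, a replicate block, and each array left out in turn. All members but *Sprr2b* kept their direction in all of these, and *Sprr2b* lay between -0.043 (without mutant 1) and 0.90 (without mutant 3). The family was chosen on this contrast, so the counts of members that follow describe the settings and support nothing. Members past the threshold numbered 8 in the fit as deposited, 7 with median centring or sex as a covariate, 6 with the block and 6 to 7 with an array left out. *Sprr2e* to *Sprr2i* were past it in all 12 alternatives, *Sprr2j-ps* in 10, *Sprr2d* in 7, *Sprr2k* in 4 and *Sprr2b* in 0. The median member difference was 3.59 to 4.64 with an array left out (3.59 without control 1). Genes called over the whole table numbered 207, and 44 to 193 with an array left out (44 without control 3).

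The labels share replicate numbers, but in deviations from the group means no array labelled mutant correlated best with the control of its own number. That does not exclude a pairing. With the replicate block 81 genes were called. Among the lists, the block left 0 envelope scaffold genes, 2 late envelope genes, 0 NRF2 targets and 0 barrier stress genes. Envelope scaffold genes past the threshold numbered 2 with quantile normalization and 0 to 1 with an array left out. Late envelope genes numbered 7 with median centring, 7 with sex as a covariate and 2 to 8 with an array left out, NRF2 targets 0 to 1 and barrier stress genes 1 to 3. Without control 2, 1 of the 3 barrier stress genes past the threshold was lower. The dim *Lelp1* lay between -0.019 (without mutant 3) and 0.28. The sex and interaction counts of the members stayed at 0 in the 4 alternatives tried, which were normalization, centring, dim probe sets and the mean of probe sets. The causes of these changes were not tested. Alternatives for the gene lists were chosen after seeing the data.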
